A study of Mus musculus with 17 samples.

Results

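Translation initiation and elongation factors are the proteins that bring the ribosome to a messenger RNA, choose the start codon and move the ribosome along the message. Their transcripts were followed in the mouse heart through the first postnatal week. The members were the genes whose mouse symbol begins with Eif1 to Eif6, Eef1 or Eef2, leaving out Eif2s3x and Eif2s3y. The rule used symbols alone and no measured value. It found 66 of the 16569 named genes. RNA came from ventricles of male C57Bl/6 mice, with no treatment, at postnatal day 0 (P0, before the ductus arteriosus closes), day 3 (P3, a transition stage) and day 7 (P7), when most cardiomyocytes have reached terminal differentiation. The right ventricle (RV) gave 3 libraries at P0, 3 at P3 and 2 at P7, and the left ventricle (LV) gave 3 at each age. The labels call these libraries biological replicates. No source used here says whether a library held 1 heart or several, so p-values measure the spread between these libraries.

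In the first step of translation, eIF2 brings the initiator tRNA to the small ribosomal subunit together with eIF1, eIF1A, eIF3 and eIF5. The eIF4 proteins bind the cap of the messenger RNA and unwind its leader. Phosphorylation of the eIF2 alpha subunit slows this step throughout the cell, and the 4E-BP proteins hold back the cap-binding protein eIF4E until mTORC1 phosphorylates them. During elongation, eEF1A delivers the aminoacyl-tRNAs and eEF2 moves the ribosome to the next codon. Adult skeletal muscle, heart and neurons are known for making eEF1A2, a paralogue of the widespread eEF1A1.

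Levels were given as RPKM, reads scaled by transcript length and library size, so levels of different genes compare per length. Each value belongs to 1 RefSeq messenger RNA entry; where a gene had several entries, the one with the highest mean over all libraries stood for it. Values marked ± after RPKM are SDs over libraries (n = 3, or n = 2 for RV P7), and those after a log2 change are SEs. Log2 changes compare RPKM + 1 and so understate the change of low entries. Changes with an adjusted p under 0.05 were called, by limma with Benjamini-Hochberg adjustment over all 10668 tested entries. Of the 66 members, 58 passed the filter of at least 1 RPKM in at least 2 libraries. Eef1akmt3, Eef2k, Eif2ak4, Eif4a1, Eif4ebp3, Eif4enif1, Eif4g1 and Eif4g3 did not. Genes with several RefSeq transcripts read low: their 21 members had a median of 4.40 RPKM, against 48.7 RPKM for the 45 members with a single one. The Eif4a1 entry stood no higher than 0.0892 RPKM in any library and the Eif4g1 entry no higher than 0.00962 RPKM. Of the 8 members that were not tested, 6 have several RefSeq transcripts, and the values of such entries are not totals of their genes.

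The libraries held between 27561845 and 41061058 reads. The share of a library's reads that lay in the listed entries was lower at the later ages: 70.1% ± 2.39, 61.1% ± 1.13 and 56.2% ± 2.83 in RV at P0, P3 and P7, and 71.3% ± 1.71, 62.8% ± 4.16 and 56.5% ± 2.34 in LV. RPKM were scaled to the whole library, and the median log2 change of all tested entries was -0.29 for P7 against P0 in RV and -0.31 in LV. Scaling each library to its upper quartile moved these medians to -0.02 in both, so changes are also given after that scaling. In 7 of the 11 P3 and P7 libraries the entry NM_008710 was at 0.128 to 0.205 RPKM, while the other 10 libraries had at least 2.99 RPKM of it. Every P0 library was among those 10, so this split of the libraries is partly confounded with age. At the later ages, replicate 1 had 9.19 RPKM (RV P3), 7.26 RPKM (RV P7), 14.6 RPKM (LV P3) and 3.19 RPKM (LV P7). All libraries numbered 2 or 3 at these ages were low. RV P7 replicate 1 was thus the only library of its group that was not low. After P0 the split therefore also followed the replicate number. Its part in the changes with age was not tested. All 10 cardiomyocyte markers were above 1 RPKM in every group. Their summed level, in RPKM without upper-quartile scaling, was lower at P7 than at P0, with 27742 to 31250 RPKM in RV P7, against 35117 to 44732 RPKM in RV P0, and 27460 to 29158 RPKM in LV P7, against 37225 to 41130 RPKM in LV P0, without overlap. Of the 10, 5 (50%) were called lower and 2 higher in each chamber. Among all tested entries 46.1% were called lower in RV and 53% in LV. With upper-quartile scaling 3 of the 10 fell and 3 rose in RV, and 3 fell and 4 rose in LV. All entries then fell in 20.6% and rose in 19.8% in RV, and 25.3% and 24.4% in LV. The summed level of 6 endothelial markers was higher at P7 than at P0, with 1300 to 1794 RPKM in RV P7, against 657 to 805 RPKM in RV P0, and 1867 to 2072 RPKM in LV P7, against 624 to 885 RPKM in LV P0. The sum of 5 proliferation markers was lower, with 96.8 to 99.7 RPKM in RV P7, against 210 to 274 RPKM in RV P0, and 91.7 to 102 RPKM in LV P7, against 256 to 301 RPKM in LV P0. The sum of 4 macrophage markers was higher, with 30.2 to 33.9 RPKM in RV P7, against 14.3 to 18.6 RPKM in RV P0, and 29.5 to 35.3 RPKM in LV P7, against 16.8 to 21.2 RPKM in LV P0. The sum of 6 fibroblast markers was 481 to 568 RPKM in RV P7, against 299.6 to 458 RPKM in RV P0, and 439 to 521 RPKM in LV P7, against 337 to 525 RPKM in LV P0, where the ages overlap. No marker on these lists was at 0. The part of cell composition in the results was not tested, and in whole ventricles fewer cells of a type and less RNA per cell cannot be told apart.

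Most translation factor transcripts were lower at P7 than at P0 in both chambers, and a pair of members went the other way. In RV, 44 of the 58 tested members fell and 2 rose, Eif4e3 and Eef1a2. Among all tested entries, 46.1% were called lower and 9.81% higher in that comparison. In LV, 48 fell and 1 rose, Eif4e3, where 53% of all tested entries were called lower and 11.8% higher. The median change of the tested members was -0.45 in RV and -0.46 in LV, further below 0 than the medians of all tested entries. After upper-quartile scaling 20 members fell and 2 rose in RV, where 20.6% of all entries fell and 19.8% rose, and the members' median was -0.14. In LV 20 fell and 5 rose after that scaling, where 25.3% of all entries fell and 24.4% rose, and the members' median was -0.12. The 5 were Eif4e3, Eef1a2, Eif2ak3, Eif2b3 and Eef2. Without the 7 libraries low in NM_008710, which leaves 1 library in each of RV P3, LV P3, RV P7 and LV P7, 39 members were called in RV (40.1% of all entries) and 30 in LV (36.5% of all entries). Those lone libraries were assumed to vary like the P0 groups. For the fits that leave out 1 library, the share of all entries called was not taken. Without RV P7 replicate 1, which leaves 1 library in that group, 30 members were called in RV, 29 of them lower.

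**Figure D1:**
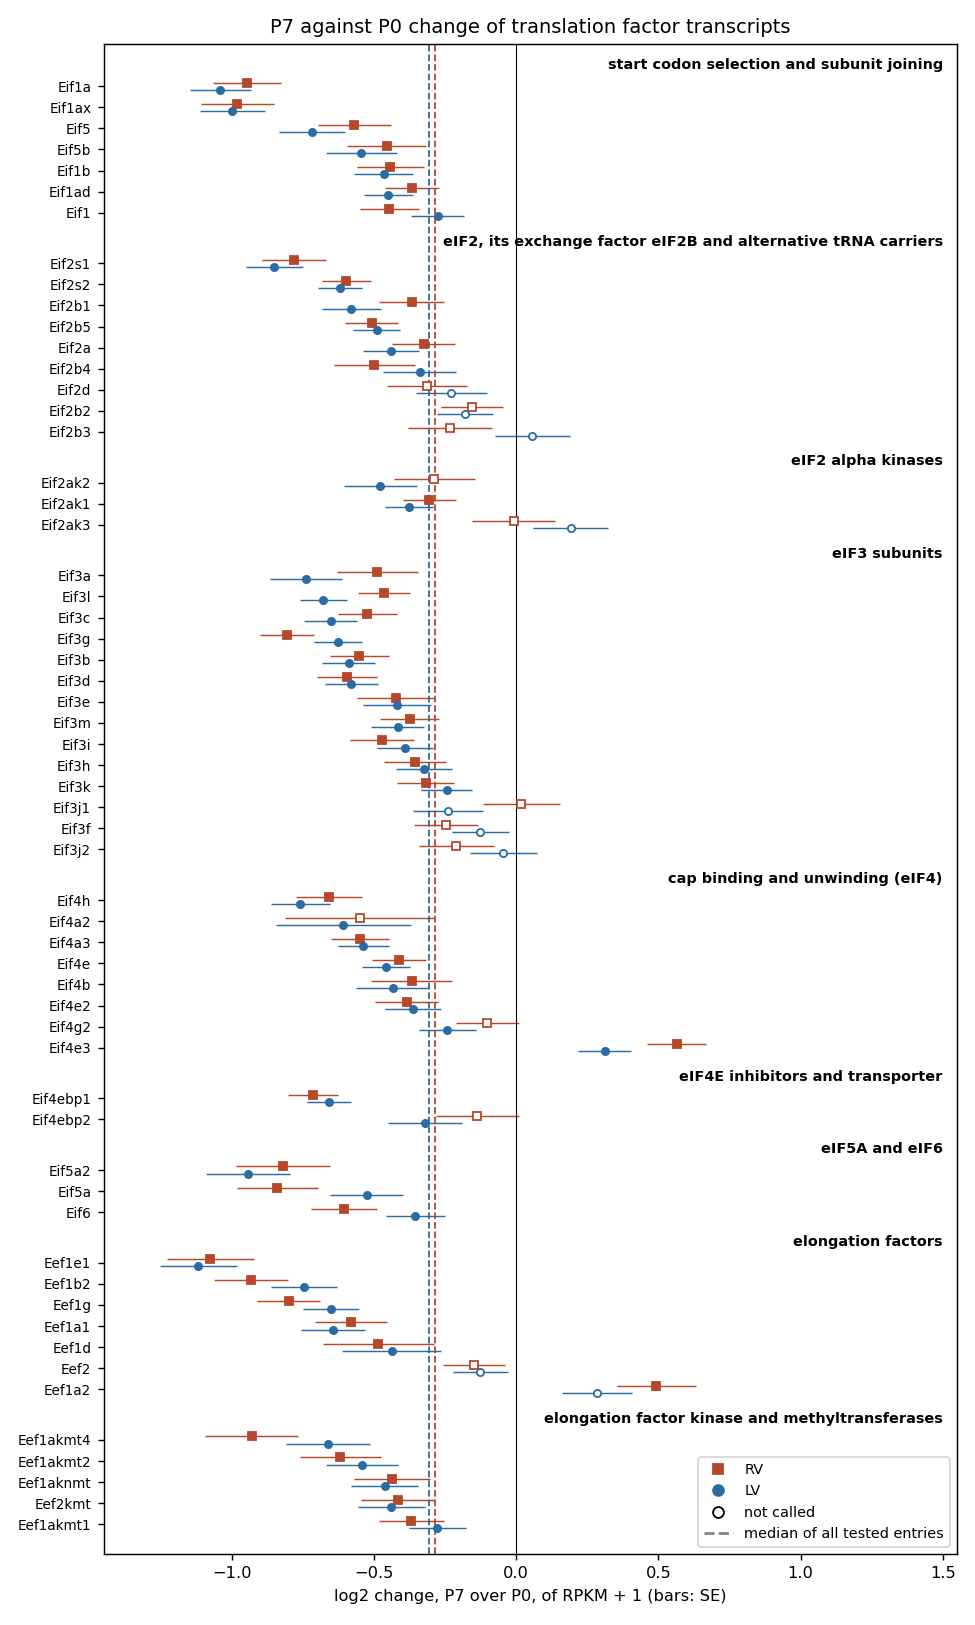
Log2 change of each tested member between P7 and P0 (x axis, RPKM + 1; squares RV, circles LV, bars SE), by role; filled symbols are called and dashed lines mark the median of all tested entries (-0.29 in RV, -0.31 in LV). Most members lie left of 0, Eef1e1 is farthest left, and Eif4e3 and Eef1a2 lie right of 0 in both chambers.

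The promoters of 3 members that fell in both chambers (Eef1e1, Eif1ax, Eif5a2), of the eEF1A paralogues that moved apart and of the eIF3 subunits Eif3f and Eif3l, with LV changes of -0.13 and -0.68, are shown first. Each window holds 150 bases before and 20 bases after the RefSeq start (GRCm38.p6), 5′ to 3′ on the gene's strand. Capitals mark CACGTG, the E-box bound by Myc and related factors, and pyrimidine runs at the start, a feature of messages whose translation follows mTORC1.
Eef1a1 (chr9:78481705-78481874, - strand): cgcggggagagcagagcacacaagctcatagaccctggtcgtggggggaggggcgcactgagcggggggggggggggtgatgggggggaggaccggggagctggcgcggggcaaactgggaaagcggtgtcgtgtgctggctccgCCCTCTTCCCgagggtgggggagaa
Eef1a2 (chr2:181156996-181157165, - strand): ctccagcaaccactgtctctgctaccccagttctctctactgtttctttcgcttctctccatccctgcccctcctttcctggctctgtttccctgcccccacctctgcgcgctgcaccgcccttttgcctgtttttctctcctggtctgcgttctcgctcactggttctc
Eif1ax (chrX:159372028-159372197, + strand): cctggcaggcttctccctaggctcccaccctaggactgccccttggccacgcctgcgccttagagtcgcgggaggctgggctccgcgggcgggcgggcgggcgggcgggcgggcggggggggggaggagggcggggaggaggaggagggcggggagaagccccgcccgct
Eef1e1 (chr13:38659009-38659178, - strand): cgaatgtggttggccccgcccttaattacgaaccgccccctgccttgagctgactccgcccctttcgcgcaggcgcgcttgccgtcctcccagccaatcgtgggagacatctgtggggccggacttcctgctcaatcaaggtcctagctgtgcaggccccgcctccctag
Eif5a2 (chr3:28781127-28781296, + strand): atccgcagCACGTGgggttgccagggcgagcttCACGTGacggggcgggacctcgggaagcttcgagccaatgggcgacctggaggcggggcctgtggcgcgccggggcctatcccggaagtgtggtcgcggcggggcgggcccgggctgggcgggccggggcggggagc
Eif3f (chr7:108934265-108934434, + strand): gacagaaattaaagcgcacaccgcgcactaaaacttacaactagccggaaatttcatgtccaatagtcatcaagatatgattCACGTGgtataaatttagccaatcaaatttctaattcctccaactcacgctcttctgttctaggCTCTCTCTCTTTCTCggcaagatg
Eif3l (chr15:79075073-79075242, + strand): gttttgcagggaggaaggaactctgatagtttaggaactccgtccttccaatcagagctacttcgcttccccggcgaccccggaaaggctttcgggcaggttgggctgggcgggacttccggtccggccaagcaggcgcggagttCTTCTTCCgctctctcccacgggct
Eif5a2 held 2 copies of CACGTG in this window and Eif3f held 1. The start used for the Eif5a2 window lies inside the whole-gene span (28781032 to 28798846). Its window, with both copies, therefore lies within that span and not before it. Eef1a1 had a run of 10 pyrimidines at its start, Eif3f one of 15 and Eif3l one of 8.

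Of the 66 members, 51 had a promoter in the RefSeq table, which covers 250 bases before and 50 after the start. CACGTG, which reads the same on both strands, was in 14 of these (27.5%), against 8.09% of the 27025 genes in the table. Of the tested members with a promoter, 11 held it and 34 did not, against 11.6% of the 8180 tested genes with a promoter. Those 14 included Eef2, Eif4e, Eif4g1, Eif4a1, Eif4h, Eif5a and Eif3a. A C followed by at least 5 bases that were each C or T, within 10 bases of the start on the gene's strand, was in 10 of 51 (19.6%), against 18.2% of all genes. Of the tested members with a promoter, 7 held such a run and 38 did not, against 18.5% of tested genes. A pyrimidine run can share its last C with CACGTG. The 11 tested members with CACGTG had a median P7 against P0 change of -0.44 in RV, against -0.46 for the 34 without it, and of -0.47 in LV, against -0.51. A match describes letters, not binding.

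All 7 members grouped here under start codon selection and subunit joining were tested, and all 7 fell in both chambers. Among all tested entries, 46.1% were called lower in RV and 53% in LV. After upper-quartile scaling 3 fell in each chamber, Eif1a, Eif1ax and Eif5, and Eif1, Eif1b, Eif1ad and Eif5b were not called. Of all entries, 20.6% fell in RV and 25.3% in LV after that scaling. On the log2 scale of RPKM + 1, the eIF1A genes had the largest falls of the group. In mean RPKM the low Eif5 fell further, to 0.456 of P0 in RV and 0.374 in LV. Eif1a fell to 0.494 and 0.462. Eif1ax (chromosome X, 159372178 to 159389621), the X-linked eIF1A gene, had 47.9 and 60.5 RPKM in RV P7 libraries, against 118, 109 and 95.4 RPKM in RV P0 libraries. It had 56.3, 48.6 and 48.7 RPKM in LV P7 libraries, against 106, 102 and 101 RPKM in LV P0 libraries. Every P7 library was below every P0 library of its chamber, in RV (log2 = -0.98 ± 0.13, adjusted p = 5.35e-06) and in LV (log2 = -0.998 ± 0.11, adjusted p = 6.59e-07). Eif1a, its autosomal paralogue, had 8.84 and 9.95 RPKM in RV P7 libraries, against 20.1, 18.5 and 18.5 RPKM in RV P0 libraries. In LV, Eif1a had 9.12, 10.3 and 8.30 RPKM in LV P7 libraries, against 20.1, 18.6 and 21.5 RPKM in LV P0 libraries. Again no P7 library reached the P0 range, and the change was -0.95 in RV (adjusted p = 3.36e-06) and -1.04 in LV (adjusted p = 1.56e-07). Both eIF1A genes also fell after upper-quartile scaling, Eif1ax by 0.66 in RV and 0.65 in LV on the log2 scale. The eIF1A genes are near-identical copies, and no source used here says how reads common to both were assigned.

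Eif1, which guards start codon choice, fell less, with 213 ± 2.92 RPKM in RV P7, against 290.1 ± 4.12 RPKM in RV P0 (-0.45) and 222 ± 25.01 RPKM in LV P7, against 268 ± 15.8 RPKM in LV P0 (-0.28). The scaled change of Eif1 was -0.12 in RV and 0.08 in LV, neither called. Per length, the level of Eif1ax was 0.385 ± 0.0338 of that of Eif1 at P0, 0.328 ± 0.0327 at P3 and 0.231 ± 0.00727 at P7 in LV, a ratio that no scaling of a library can move. Eif5b, the GTPase that joins the subunits, fell in RV (-0.46) and LV (-0.55). Eif5, which makes eIF2 hydrolyse its GTP, was read at a low level of its entry and fell to 0.648 RPKM in LV P7, against 1.73 RPKM in LV P0. Leaving out 1 library ended these calls (adjusted p in parentheses): Eif5b without RV P0 replicate 3 (0.0549) or RV P7 replicate 1 (0.105) in RV, and Eif1 without LV P7 replicate 2 (0.0762) or LV P7 replicate 3 (0.054) in LV.

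**Figure D2:**
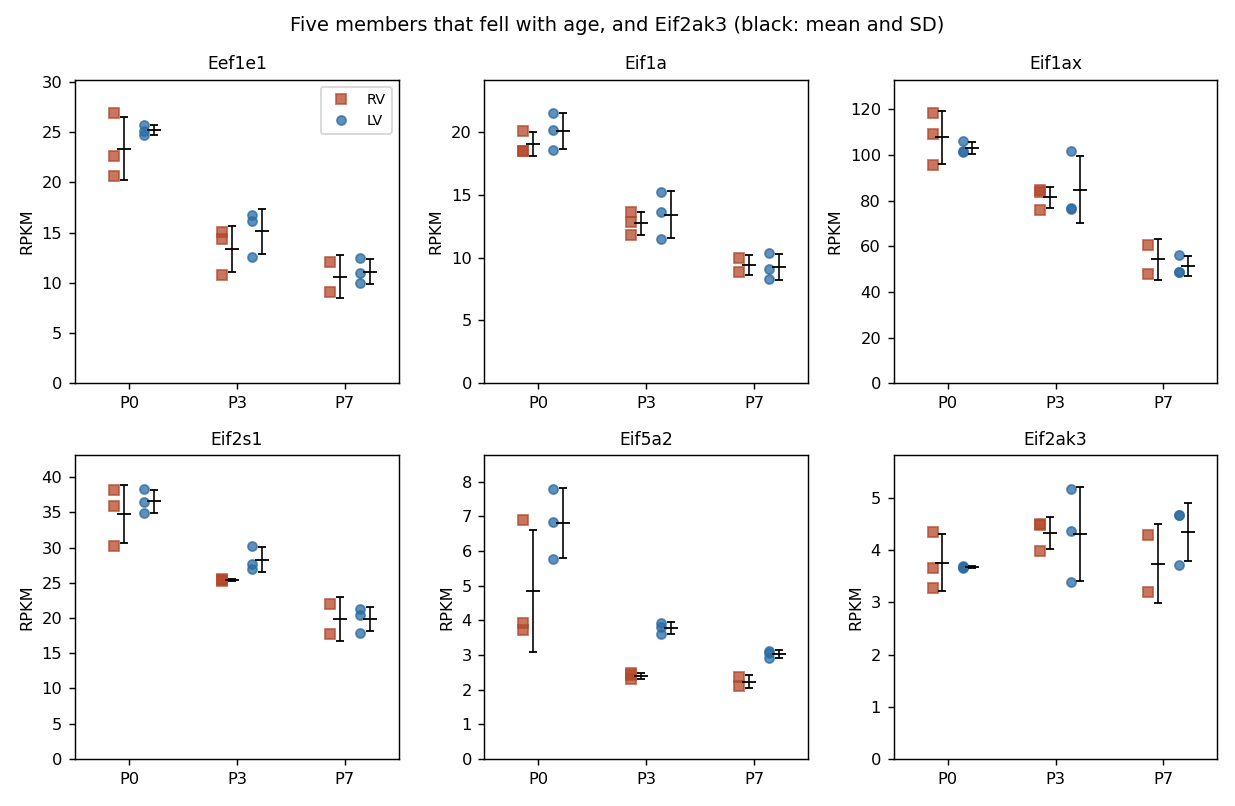
RPKM (y axis) of Eef1e1, Eif1a, Eif1ax, Eif2s1, Eif5a2 and Eif2ak3 in each library at P0, P3 and P7 (squares RV, circles LV, black mean and SD). The first 5 step down with age in both chambers, while Eif2ak3 stays between 3.21 and 5.17 RPKM.

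Of the 9 members for eIF2, its exchange factor eIF2B and the alternative tRNA carriers, 6 (66.7%) fell in RV and 6 in LV, and none was called higher in either. Among all tested entries, 46.1% fell in RV and 53% in LV. After upper-quartile scaling 3 fell in RV (Eif2s1, Eif2s2 and Eif2b5), and in LV 3 fell (Eif2s1, Eif2s2 and Eif2b1) and Eif2b3 rose (0.35, adjusted p = 0.023). Of all entries, 20.6% fell in RV after that scaling, and 25.3% fell and 24.4% rose in LV. Eif2s1 (chromosome 12, 78862072 to 78887010) encodes eIF2 alpha, the subunit that stress kinases phosphorylate. It had 17.7 and 22.03 RPKM in RV P7 libraries, against 38.2, 35.95 and 30.2 RPKM in RV P0 libraries. The LV values of Eif2s1 were 20.5, 21.2 and 17.9 RPKM in LV P7 libraries, against 36.4, 38.3 and 34.96 RPKM in LV P0 libraries. The P7 libraries all lay below the P0 libraries, with log2 = -0.78 ± 0.11, adjusted p = 1.52e-05 in RV and log2 = -0.85 ± 0.10, adjusted p = 8.71e-07 in LV, and both falls were called after scaling too (-0.47 and -0.51). The beta subunit gene Eif2s2 fell in RV (-0.60) and LV (-0.62), also after scaling. Of the eIF2B subunit genes, Eif2b5, which carries the catalytic subunit of the exchange factor, had 17.9 ± 0.000452 RPKM in RV P7, against 25.8 ± 0.226 RPKM in RV P0 (log2 = -0.51 ± 0.09, adjusted p = 0.000184). In LV, Eif2b5 had 16.99 ± 1.52 RPKM in LV P7, against 24.2 ± 0.453 RPKM in LV P0 (log2 = -0.49 ± 0.08, adjusted p = 5.34e-05). Eif2b1 and Eif2b4 also fell in both chambers, while Eif2b2 (-0.16 in RV, -0.18 in LV) and Eif2b3 (-0.23 and 0.06) were not called. Eif2a fell in both chambers (-0.33 and -0.44), and Eif2d was not called (-0.31 and -0.23). Without 1 library the RV call ended (adjusted p in parentheses) for Eif2b1 without RV P7 replicate 1 (0.255), Eif2b4 without RV P7 replicate 1 (0.265) and Eif2a without RV P0 replicate 1 (0.0833) or RV P7 replicate 1 (0.115). It ended the LV call of Eif2b4 without LV P0 replicate 1 (0.0776) or LV P0 replicate 2 (0.0778) or LV P7 replicate 2 (0.0854) or LV P7 replicate 3 (0.0559). Calls were also made without 1 library, in RV of Eif2b3 without RV P7 replicate 2 (0.023) and Eif2d without LV P0 replicate 1 (0.0467) and in LV of Eif2d without LV P0 replicate 1 (0.028).

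The eIF2 alpha kinases differed among themselves in level and in call. After upper-quartile scaling none of the 3 tested fell, where 20.6% of all entries fell in RV and 25.3% in LV. Eif2ak1, the kinase known as HRI that answers to heme shortage, had the highest entry of the tested kinases. Eif2ak3 has 2 RefSeq transcripts, so its entry may not be the total of its gene. In RV, Eif2ak1 fell to 11.9 ± 1.13 RPKM at P7, against 14.9 ± 0.460 RPKM at P0 (-0.31). In LV, Eif2ak1 fell to 12.03 ± 0.113 RPKM at P7, against 15.9 ± 0.525 RPKM at P0 (-0.38). Eif2ak2, the double-stranded RNA sensor PKR, fell in LV (log2 = -0.48 ± 0.13, adjusted p = 0.00322) and was not called in RV (log2 = -0.29 ± 0.14, adjusted p = 0.0944). In RV the replicate block, the replicate number shared over all ages, gave adjusted p = 0.0496. Leaving out RV P0 replicate 3 gave 0.00973. No check here pairs libraries of different ages. The RV call of Eif2ak1 ended without RV P7 replicate 1 (adjusted p = 0.158). Eif2ak3 (chromosome 6, 70844484 to 70905241), the endoplasmic reticulum stress sensor PERK, had 3.21 and 4.29 RPKM in RV P7 libraries, against 4.36, 3.28 and 3.65 RPKM in RV P0 libraries. The LV values of Eif2ak3 were 4.68, 3.71 and 4.68 RPKM in LV P7 libraries, against 3.65, 3.67 and 3.69 RPKM in LV P0 libraries. The groups overlap in RV, and in LV every P7 library was above every P0 library, the nearest by a small margin. Neither change was called (-0.01 in RV, 0.19 in LV), but after upper-quartile scaling Eif2ak3 rose in LV (0.47, adjusted p = 0.000676). The Eif2ak4 entry, of the amino acid sensor GCN2, averaged 0.333 RPKM and was not tested.

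Among the 14 tested eIF3 subunit genes, which together build the scaffold on which the small subunit, eIF4G and the messenger RNA meet, 11 (78.6%) fell in RV and 11 in LV, and none was called higher. Among all tested entries, 46.1% fell in RV and 53% in LV. After upper-quartile scaling 3 fell in RV and 6 in LV, where 20.6% of all entries fell in RV and 25.3% in LV. The size of the fall varied between subunits. Eif3a (chromosome 19, 60761116 to 60790693), the largest subunit and a core of the complex, had 45.9, 52.5 and 49.4 RPKM in LV P7 libraries, against 84.1, 80.1 and 84.2 RPKM in LV P0 libraries. Eif3f (chromosome 7, 108934415 to 108941942), one of the subunits with an MPN fold, had 132, 106 and 128 RPKM in LV P7 libraries, against 139.8, 122 and 138 RPKM in LV P0 libraries. For Eif3a every LV P7 library lay below the P0 range (log2 = -0.74 ± 0.13, adjusted p = 5.7e-05), while the Eif3f libraries of the ages overlapped (log2 = -0.13 ± 0.10, adjusted p = 0.276). The ratio of Eif3a to Eif3f, free of library scaling, was 0.624 ± 0.0300 at P0, 0.580 ± 0.149 at P3 and 0.409 ± 0.0758 at P7 in LV. In RV, Eif3a fell by 0.49 on the log2 scale, and Eif3g, an RNA-binding subunit that helps scanning, had the largest fall of the subunits. Eif3g had 37.3 and 36.7 RPKM in RV P7 libraries, against 67.96, 59.98 and 68.8 RPKM in RV P0 libraries (log2 = -0.81 ± 0.09, adjusted p = 1.43e-06). In LV, Eif3g was 40.8 ± 2.44 RPKM in LV P7, against 63.5 ± 5.49 RPKM in LV P0 (-0.63). The 2 RV P7 values of Eif3g lay close together and well under the P0 range. Eif3b, Eif3c, Eif3d and Eif3l fell by 0.58 to 0.68 on the log2 scale in LV and by 0.47 to 0.60 in RV. Eif3h, Eif3i, Eif3k, Eif3m and Eif3e fell by 0.24 to 0.42 in LV, and none of these 5 was called in LV after scaling. Besides Eif3f, the loosely bound Eif3j genes were not called in either chamber, Eif3j1 at 0.02 in RV and -0.24 in LV and the low Eif3j2 at -0.21 and -0.04. Those genes are near-identical copies. Leaving out 1 library ended the RV call (adjusted p in parentheses) of Eif3a without RV P7 replicate 1 (0.129), Eif3e without RV P0 replicate 1 (0.0727) or RV P7 replicate 1 (0.0574) or RV P7 replicate 2 (0.0595), Eif3h without RV P7 replicate 2 (0.0571), Eif3i without RV P7 replicate 1 (0.0674) and Eif3k without RV P7 replicate 1 (0.0518) or RV P7 replicate 2 (0.0616). It ended the LV call of Eif3k without LV P0 replicate 1 (0.0866) or LV P0 replicate 2 (0.0633) or LV P7 replicate 2 (0.0711). It made the RV call of Eif3f without LV P7 replicate 2 (0.05) or RV P0 replicate 2 (0.0294) and the LV call of Eif3j1 without LV P0 replicate 3 (0.026) or LV P7 replicate 1 (0.023), and the replicate block called Eif3j1 in LV too (0.0423).

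**Figure D3:**
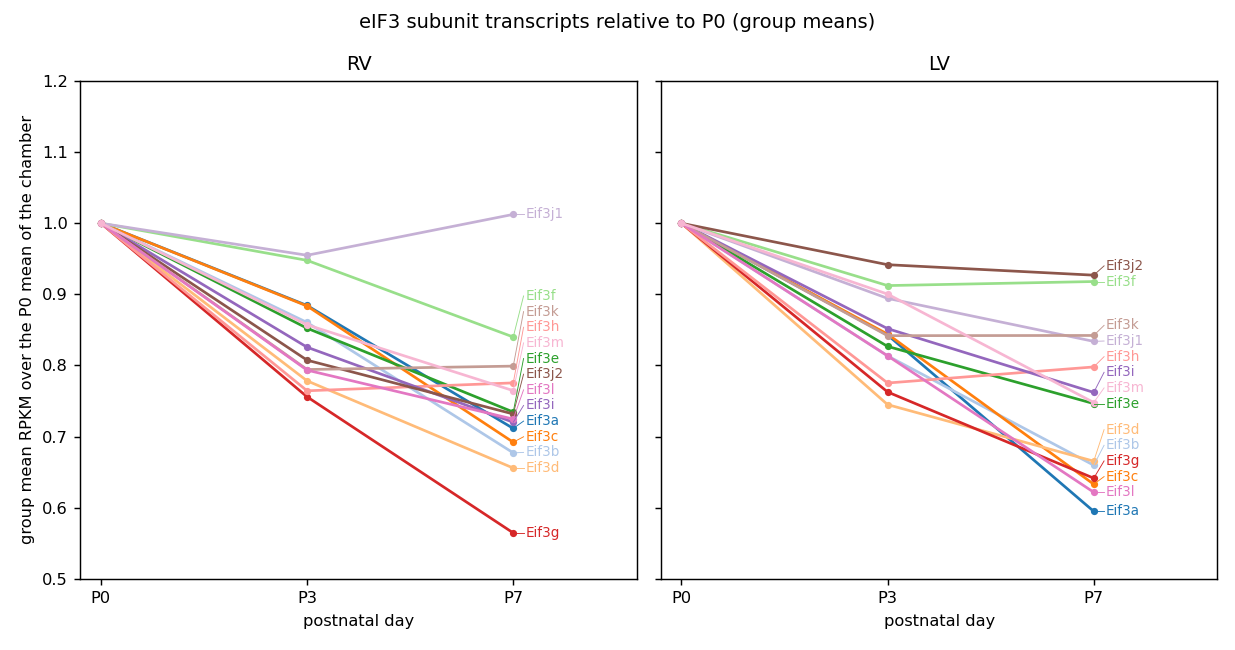
Group mean RPKM of each eIF3 subunit over its P0 mean in the same chamber (y axis, starting at 0.5) at P0, P3 and P7, RV left and LV right. Eif3g ends lowest in RV and Eif3a lowest in LV, and Eif3f and Eif3j1 stay nearest to 1 in RV, where Eif3j2 and Eif3f do in LV.

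Of the 8 tested members for cap binding and unwinding, 5 (62.5%) fell and 1 rose in RV, and 7 (87.5%) fell and 1 rose in LV. Among all tested entries, 46.1% fell and 9.81% rose in RV, and 53% fell and 11.8% rose in LV. After upper-quartile scaling 2 fell, Eif4h and Eif4a3, and Eif4e3 rose in each chamber. Of all entries, 20.6% fell and 19.8% rose in RV after that scaling, and 25.3% and 24.4% in LV. The cap-binding paralogues went in opposite directions. Eif4e (chromosome 3, 138526191 to 138559696), which encodes the main cap-binding protein, had 32.2 and 33.2 RPKM in RV P7 libraries, against 43.4, 43.7 and 44.5 RPKM in RV P0 libraries (log2 = -0.41 ± 0.09, adjusted p = 0.00128). In LV, Eif4e had 32.8, 33.4 and 30.2 RPKM in LV P7 libraries, against 40.8, 46.2 and 46.7 RPKM in LV P0 libraries (log2 = -0.46 ± 0.08, adjusted p = 0.000128). Eif4e3 (chromosome 6, 99621879 to 99692873), a cap-binding paralogue that does not bind the 4E-BP inhibitors, had 15.7 and 15.1 RPKM in RV P7 libraries, against 9.43, 9.87 and 10.96 RPKM in RV P0 libraries (log2 = 0.56 ± 0.10, adjusted p = 0.000194). In LV, Eif4e3 had 16.00, 14.1 and 13.4 RPKM in LV P7 libraries, against 10.7, 12.1 and 11.7 RPKM in LV P0 libraries (log2 = 0.31 ± 0.09, adjusted p = 0.00692). Eif4e at P7 lay below the P0 range and Eif4e3 above it, without overlap in either chamber. Per length, Eif4e3 stood at 0.230 ± 0.0147 of the level of Eif4e at P0, 0.386 ± 0.0180 at P3 and 0.470 ± 0.0241 at P7 in RV. In LV it stood at 0.258 ± 0.00719, 0.395 ± 0.0105 and 0.452 ± 0.0329 at the same ages. Most of that shift in the ratio was present by P3. Eif4e has 2 RefSeq transcripts and Eif4e3 has 1, so the ratio compares entries and may not be that of gene totals. After upper-quartile scaling Eif4e3 rose by 0.87 in RV and 0.64 in LV on the log2 scale, and Eif4e was not called in either (-0.09 and -0.11).

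Eif4h, a helper of the helicase eIF4A, fell most in the group, with 71.8 ± 6.17 RPKM in RV P7, against 114 ± 12.1 RPKM in RV P0 (log2 = -0.66 ± 0.12, adjusted p = 0.000122) and 69.96 ± 11.3 RPKM in LV P7, against 118 ± 7.16 RPKM in LV P0 (log2 = -0.76 ± 0.10, adjusted p = 4.9e-06). Eif4a3, the eIF4A paralogue of the exon junction complex, fell in RV (-0.55) and LV (-0.54), also after scaling. The helicase gene Eif4a2 fell in LV (log2 = -0.61 ± 0.24, adjusted p = 0.0307) and was not called in RV (log2 = -0.55 ± 0.26, adjusted p = 0.0843). Eif4b, another helper of the helicase, and the paralogue Eif4e2 fell in both chambers. Eif4g2, which lacks the eIF4E site of the eIF4G scaffolds, fell in LV (-0.24, and 0.10 after scaling, not called) and was not called in RV (-0.10). The entries of the scaffolds Eif4g1 and Eif4g3 were under the filter, so the scaffold was not measured here. The RV call ended without 1 library (adjusted p in parentheses) for Eif4e2 without RV P7 replicate 1 (0.0992) and Eif4b without RV P0 replicate 1 (0.175) or RV P0 replicate 3 (0.0627) or RV P7 replicate 1 (0.111) or RV P7 replicate 2 (0.128), and made that for Eif4a2 without LV P3 replicate 2 (0.0334). It ended the LV call of Eif4a2 without LV P0 replicate 3 (0.102) or LV P7 replicate 1 (0.104) or LV P7 replicate 3 (0.0614) and Eif4g2 without LV P0 replicate 1 (0.118) or LV P0 replicate 2 (0.0945) or LV P7 replicate 1 (0.0761) or LV P7 replicate 2 (0.133).

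Among the eIF4E inhibitors, Eif4ebp1 (chromosome 8, 27260327 to 27275656), the 4E-BP gene with the highest level here, had 171 and 183 RPKM in RV P7 libraries, against 275, 285 and 316 RPKM in RV P0 libraries. In LV it had 179, 178 and 186 RPKM in LV P7 libraries, against 302, 282 and 274 RPKM in LV P0 libraries. All P7 libraries lay under all P0 libraries (log2 = -0.71 ± 0.09, adjusted p = 2.48e-06 in RV and log2 = -0.66 ± 0.08, adjusted p = 9.59e-07 in LV), and both falls were called after scaling (-0.39 and -0.30). Eif4ebp2 fell in LV (-0.32, and 0.02 after scaling, not called) and was not called in RV (-0.14); the LV call ended (adjusted p in parentheses) for Eif4ebp2 without LV P0 replicate 1 (0.22) or LV P7 replicate 1 (0.0519) or LV P7 replicate 2 (0.174). Eif4ebp3 averaged 0.193 RPKM and was not tested. Eif4ebp1 made up 90.5% of the summed Eif4ebp1 and Eif4ebp2 level in RV P7, against 93.3% in RV P0, and 89.8% in LV P7, against 91.7% in LV P0. Neither difference passed the two-sided exact permutation test (p = 0.2 in RV, the smallest that 2 against 3 libraries allow here, and p = 0.2 in LV, where the smallest is 0.1).

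**Figure D4:**
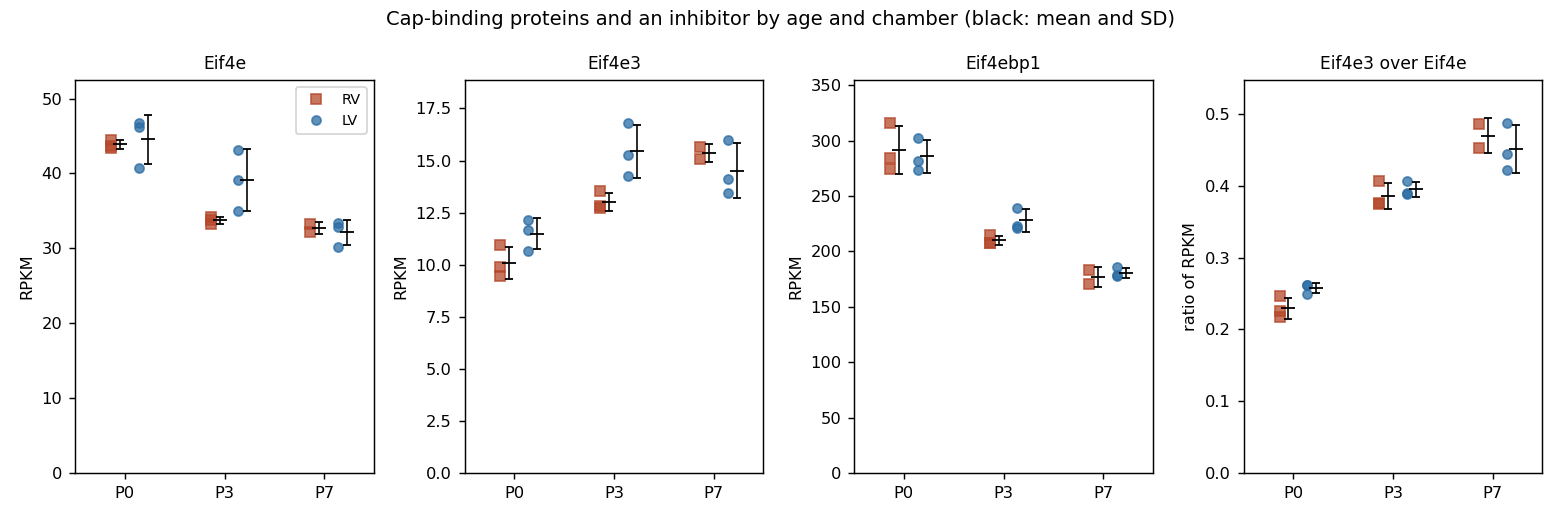
RPKM of Eif4e, Eif4e3 and Eif4ebp1 and the ratio of Eif4e3 to Eif4e (y axes) in each library at P0, P3 and P7 (squares RV, circles LV, black mean and SD). Eif4e and Eif4ebp1 step down with age, Eif4e3 is higher at P3 and P7 than at P0, and the mean ratio reaches 0.470 in RV P7 and 0.452 in LV P7.

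The 3 members for eIF5A and eIF6 all fell in both chambers, where 46.1% of all tested entries fell in RV and 53% in LV. Eif5a2 (chromosome 3, 28781032 to 28798846), the restricted paralogue of eIF5A, which helps ribosomes past difficult stretches, had 2.09 and 2.36 RPKM in RV P7 libraries, against 6.89, 3.93 and 3.73 RPKM in RV P0 libraries. The LV values of Eif5a2 were 2.91, 3.13 and 3.07 RPKM in LV P7 libraries, against 6.85, 5.78 and 7.79 RPKM in LV P0 libraries. The P7 libraries lay below the P0 libraries, and 1 RV P0 library was well above the other two. The change was -0.82 in RV (adjusted p = 0.000447) and -0.94 in LV (adjusted p = 2.37e-05), called after scaling as well. The widespread Eif5a, 1 entry of several transcripts, had 10.2 ± 2.19 RPKM in RV P7, against 18.95 ± 1.86 RPKM in RV P0 (log2 = -0.84 ± 0.14, adjusted p = 9.12e-05). In LV it had 12.1 ± 1.51 RPKM in LV P7, against 17.9 ± 2.44 RPKM in LV P0 (log2 = -0.53 ± 0.13, adjusted p = 0.00152). After scaling the fall of Eif5a was called in RV (-0.54, adjusted p = 0.00665) and not in LV (-0.19, adjusted p = 0.229). Eif6, which keeps the large subunit from joining early, fell in RV (-0.61) and LV (-0.35). After scaling its fall was called in RV (-0.29) and not in LV (-0.01), and without LV P7 replicate 2 the LV call ended (adjusted p = 0.0529).

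Elongation factors included the most abundant member, Eef1a1, and a member that went the other way, Eef1a2. Of the 7 tested, 5 (71.4%) fell and 1 rose in RV, and 5 fell in LV. Among all tested entries, 46.1% fell and 9.81% rose in RV, and 53% fell and 11.8% rose in LV. After upper-quartile scaling 3 fell in each chamber, Eef1b2, Eef1g and Eef1e1, while Eef1a2 rose in RV and Eef1a2 and Eef2 rose in LV. Of all entries, 20.6% fell and 19.8% rose in RV after that scaling, and 25.3% and 24.4% in LV. Eef1a1 (chromosome 9, 78478453 to 78481724) had 2848 and 3069.8 RPKM in RV P7 libraries, against 4862, 3846 and 4619 RPKM in RV P0 libraries (log2 = -0.58 ± 0.13, adjusted p = 0.000824). In LV, Eef1a1 had 3065, 2904 and 3111 RPKM in LV P7 libraries, against 4999, 4383 and 4839.9 RPKM in LV P0 libraries (log2 = -0.65 ± 0.11, adjusted p = 7.13e-05). All P7 libraries were below all P0 libraries. After scaling neither fall of Eef1a1 was called (-0.25, adjusted p = 0.169 in RV; -0.29, adjusted p = 0.0681 in LV). Eef1a2 (chromosome 2, 181141758 to 181157015), the muscle and nerve paralogue, had 278 and 232 RPKM in RV P7 libraries, against 194, 193 and 157 RPKM in RV P0 libraries (log2 = 0.49 ± 0.14, adjusted p = 0.00579). In LV it had 291, 205 and 232 RPKM in LV P7 libraries, against 219.6, 205 and 169.7 RPKM in LV P0 libraries (log2 = 0.28 ± 0.12, adjusted p = 0.0505). The RV groups did not overlap, while 1 LV P7 library lay within the LV P0 range and the LV change was not called. The RV call ended without RV P7 replicate 1 (adjusted p = 0.107). In LV the replicate block gave adjusted p = 0.0289, and leaving out 1 library made the call (adjusted p in parentheses) for Eef1a2 without LV P0 replicate 1 (0.03) or LV P7 replicate 2 (0.0139) or RV P0 replicate 1 (0.0484) or RV P0 replicate 3 (0.0423) or RV P7 replicate 1 (0.0476) or RV P7 replicate 2 (0.0476). After scaling Eef1a2 rose in both chambers (0.82 in RV, 0.64 in LV).

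The share of Eef1a2 in the summed level of the paralogues does not depend on library scaling. In RV it was 8.89 and 7.02% at P7, against 3.83, 4.77 and 3.28% at P0, and in LV 8.68, 6.58 and 6.95% at P7, against 4.21, 4.47 and 3.39% at P0. Every P7 library was above every P0 library of its chamber. The means were 3.96% ± 0.756, 3.81% ± 0.0237 and 7.95% ± 1.32 in RV at P0, P3 and P7, and 4.02% ± 0.567, 4.59% ± 0.305 and 7.41% ± 1.12 in LV, so the P3 values were near those of P0. The two-sided exact permutation test of P7 against P0 gave p = 0.2 in RV and p = 0.1 in LV, each the smallest that these numbers of libraries allow. The share of Eif1b in Eif1 and Eif1b, tested the same way, was 16.5% in RV P7, against 16.5% in RV P0 (exact p = 1), and 15.7% in LV P7, against 17.7% in LV P0 (exact p = 0.3). Shares of the Eif4a, Eif4g and Eif5a paralogues were not taken, because 1 partner was read through 1 of several entries.

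**Figure D5:**
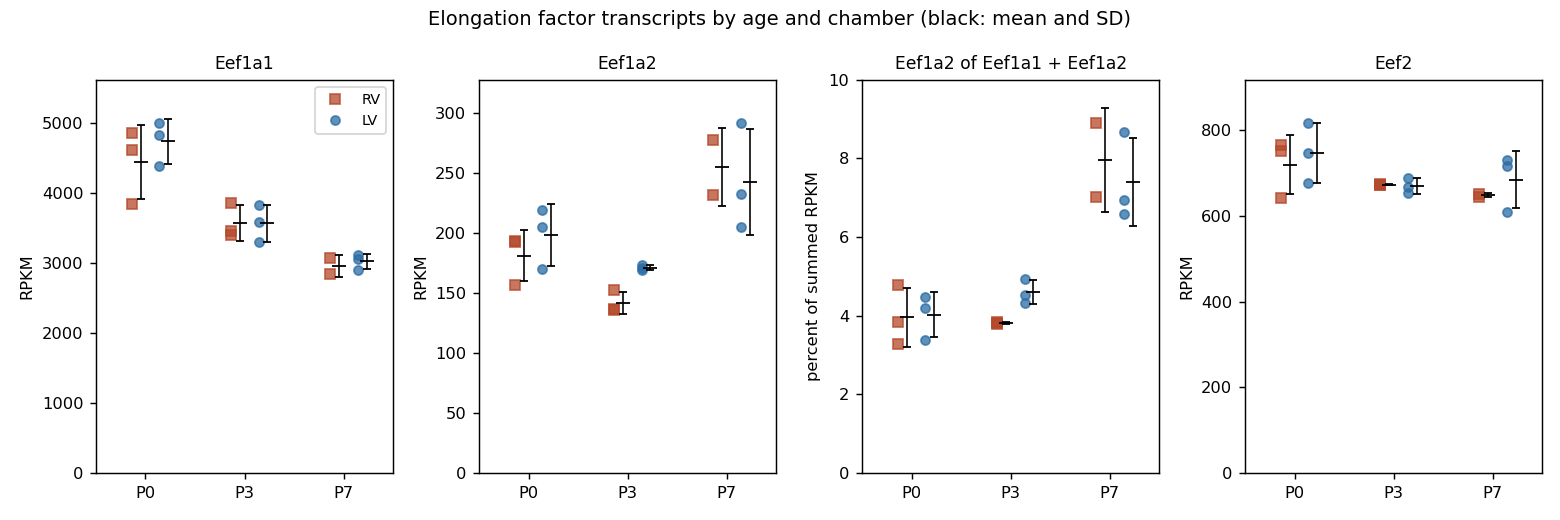
RPKM of Eef1a1, Eef1a2 and Eef2 and the percent of Eef1a2 in the summed eEF1A level (y axes) in each library at P0, P3 and P7 (squares RV, circles LV, black mean and SD). Eef1a1 steps down at each age, Eef1a2 is lowest at P3 and highest at P7, and its mean share reaches 7.95% in RV P7 and 7.41% in LV P7.

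Eef2 (chromosome 10, 81176631 to 81182509), the translocase, had 651 and 645 RPKM in RV P7 libraries, against 767, 642 and 752 RPKM in RV P0 libraries. In LV, Eef2 had 729.7, 609 and 716 RPKM in LV P7 libraries, against 816, 678 and 748 RPKM in LV P0 libraries. The ages overlapped in both chambers, and Eef2 was not called (-0.15, adjusted p = 0.251 in RV; -0.13, adjusted p = 0.257 in LV), while after scaling it rose in LV (0.23, adjusted p = 0.0464). The level of Eef2 was 0.162 ± 0.00467 of that of Eef1a1 at P0, 0.189 ± 0.0129 at P3 and 0.219 ± 0.0132 at P7 in RV, and 0.157 ± 0.00504, 0.188 ± 0.00903 and 0.226 ± 0.0147 in LV at the same ages. Eef1b2 and Eef1g, subunits of the complex that reloads eEF1A with GTP, fell in both chambers and after scaling. Eef1b2 was 71.1 ± 9.85 RPKM in RV P7, against 138 ± 26.6 RPKM in RV P0 (log2 = -0.93 ± 0.13, adjusted p = 1.13e-05), and 73.6 ± 4.55 RPKM in LV P7, against 124 ± 8.88 RPKM in LV P0 (-0.75). Eef1g was 165 ± 11.98 RPKM in RV P7, against 288 ± 23.7 RPKM in RV P0 (log2 = -0.80 ± 0.11, adjusted p = 9.64e-06), and 170.3 ± 16.5 RPKM in LV P7, against 267 ± 4.25 RPKM in LV P0 (-0.65). Eef1d, the remaining subunit, fell with wide errors (log2 = -0.48 ± 0.20, adjusted p = 0.0415 in RV; log2 = -0.44 ± 0.17, adjusted p = 0.0344 in LV), and its call ended (adjusted p in parentheses) for Eef1d without RV P0 replicate 1 (0.144) or RV P0 replicate 2 (0.134) or RV P7 replicate 1 (0.533) in RV and Eef1d without LV P0 replicate 1 (0.129) or LV P0 replicate 2 (0.122) or LV P7 replicate 2 (0.0995) or LV P7 replicate 3 (0.0719) in LV.

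Eef1e1 (chromosome 13, 38645691 to 38659028), also known as AIMP3, belongs to the multi-aminoacyl-tRNA synthetase complex. On the log2 scale of RPKM + 1 it had the largest fall of the tested members in each chamber. In mean RPKM, the low Eef1akmt4 ended at 0.398 of its P0 level in RV and the low Eif5 at 0.374 in LV. Eef1e1 ended at 0.453 in RV and 0.441 in LV. It had 9.08 and 12.1 RPKM in RV P7 libraries, against 26.9, 22.6 and 20.7 RPKM in RV P0 libraries (log2 = -1.08 ± 0.15, adjusted p = 1.37e-05). In LV it had 10.9, 12.4 and 9.97 RPKM in LV P7 libraries, against 25.1, 25.7 and 24.7 RPKM in LV P0 libraries (log2 = -1.12 ± 0.14, adjusted p = 1.38e-06). The highest P7 library stood well under the lowest P0 library in both chambers, and the scaled changes were -0.77 and -0.78, both called. All 5 tested methyltransferase genes of the elongation factors fell in both chambers, by 0.37 (Eef1akmt1) to 0.93 (Eef1akmt4) on the log2 scale in RV and by 0.28 to 0.66 in LV. Among all tested entries, 46.1% fell in RV and 53% in LV. After upper-quartile scaling 2 of the 5 fell in RV, Eef1akmt2 and Eef1akmt4, and 1 in LV, Eef1akmt4. Of all entries, 20.6% fell in RV and 25.3% in LV after that scaling. Leaving out 1 library ended the RV call (adjusted p in parentheses) of Eef1akmt1 without RV P7 replicate 1 (0.0898), Eef1akmt2 without RV P7 replicate 1 (0.0748), Eef1aknmt without RV P7 replicate 2 (0.0634) and Eef2kmt without RV P0 replicate 1 (0.0607) or RV P7 replicate 1 (0.125), and the LV call of Eef1akmt1 without LV P0 replicate 2 (0.0546) or LV P0 replicate 3 (0.0653) or LV P7 replicate 2 (0.0732) or LV P7 replicate 3 (0.0936). Eef1akmt4 was low, with 1.49 ± 0.235 RPKM in RV P7, against 3.75 ± 0.408 RPKM in RV P0. The entry of Eef2k, the kinase that stops eEF2, averaged 0.257 RPKM and was not tested.

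By P3, 23 members had been called in each chamber. In RV P3 against P0, 22 members fell and Eif4e3 rose, where 21.5% of all tested entries were called lower and 9.72% higher. In LV P3 against P0, 22 fell and Eif4e3 rose, where 20.6% were called lower and 7.26% higher. After scaling, 14 fell and 2 rose in RV (14.1% and 17.4% of all entries), and 6 fell and 2 rose in LV (10.6% and 13% of all entries). Without LV P0 replicate 1, 13 members were called in LV, and the share of all entries called in that fit was not taken. The largest changes of RPKM + 1 in this step were those of Eef1e1 (-0.77 in RV, -0.71 in LV), Eif5a2 (-0.74 and -0.70) and Eif1a (-0.54 and -0.55). They were joined by Eif5a in RV (-0.65) and Eef1b2 in LV (-0.51). Eif4e3 was 13.01 ± 0.446 RPKM in RV P3, against 10.1 ± 0.783 RPKM in RV P0 (log2 = 0.34 ± 0.09, adjusted p = 0.00907).

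In the later step, RV P7 against P3, 10 members fell and Eef1a2 rose, where 14.8% of all tested entries were called lower and 2.5% higher. In LV P7 against P3, 22 fell and Eef1a2 rose, where 27.9% were called lower and 6.56% higher. After scaling 2 fell and 2 rose in RV (5.18% and 5.97% of all entries), and 5 fell and 2 rose in LV (12.7% and 13.4% of all entries). The RV count of 11 became 1, Eef1a2, without RV P7 replicate 1, 4, 5 and 5 without RV P3 replicates 1, 2 and 3, 18 without RV P0 replicate 1 and 19 without LV P3 replicate 2. The LV count of 23 became 12 without LV P3 replicate 1 and 15 without LV P7 replicate 3. No share of all entries called was taken for these fits without 1 library. Eef1a2 was 255 ± 32.6 RPKM in RV P7, against 142 ± 9.16 RPKM in RV P3 (log2 = 0.84 ± 0.14, adjusted p = 0.00072). In LV, Eef1a2 was 243 ± 44.3 RPKM at P7, against 171 ± 1.97 RPKM at P3 (log2 = 0.49 ± 0.12, adjusted p = 0.00606). Eif1ax fell in this step in RV (-0.59) and had the largest fall of RPKM + 1 in LV (-0.71). In mean RPKM the low Eif5 fell further in LV, to 0.541 of P3, against 0.604 for Eif1ax. The others with large falls were Eef1akmt4 (-0.65) and Eif3g (-0.41) in RV, and Eif2ak2 (-0.53), Eif2s1 (-0.49) and Eif1a (-0.49) in LV. Without the 7 libraries low in NM_008710, Eef1e1 was the only member called in LV P3 against P0 (4.79% of all entries), 4 were called in RV P3 against P0 (10.4%), 4 in LV P7 against P3 (4.69%) and 0 in RV P7 against P3 (0.544%), where 18 members had an unadjusted p under 0.05 in that fit.

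In the main fit, which does not pair libraries, no member was called between the chambers. Of the 58 tested, 4 had an unadjusted p under 0.05 for RV against LV at P0, 4 at P3 and 1 at P7. At the stricter adjusted threshold, 0.141%, 0.825% and 0.159% of all tested entries were called. The share of all entries at an unadjusted p under 0.05 was not taken, here or without the 7 libraries low in NM_008710. These member counts therefore have no share to be set against. No member had an unadjusted p under 0.05 for the difference between RV and LV of the P7 against P0 change (0.0375% of all entries called) or of the P3 against P0 change (0% called). Libraries of the same number deviated together within an age. A fit with a block for each age and number, which pairs them, called 3 members lower in RV at P3. That fit called 2.93% of all entries lower there. The 3 were Eif4a2 (-0.38, adjusted p = 0.00852), Eif5a2 (-0.49, adjusted p = 0.0228) and Eef1a2 (-0.27, adjusted p = 0.0386). Eif5a2 had 2.47, 2.30 and 2.42 RPKM in RV P3 libraries, against 3.602, 3.80 and 3.93 RPKM in LV P3 libraries, with no overlap. Eef1a2 had 137, 152 and 136 RPKM in RV P3 libraries, against 169, 173 and 171 RPKM in LV P3 libraries, again with no overlap. Eif4a2 had 19.1, 9.18 and 14.7 RPKM in RV P3 libraries, against 27.1, 11.1 and 19.5 RPKM in LV P3 libraries, and these ranges overlap. Without RV P0 replicate 1 the fit with no block called Eif5a2 between RV and LV, at P0 and at P3.

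Of 33 regulators and partners of the factors 26 were tested. In RV 16 of them (61.5%) fell, where 46.1% of all tested entries fell, and in LV 19 (73.1%) fell, where 53% of all entries fell; none was called higher. After scaling 6 fell and 2 rose in RV, and 7 fell and 3 rose in LV, shares of the 26 that fell near those of all entries (20.6% in RV and 25.3% in LV). Paip2b, which pulls the poly(A)-binding protein off the message, had 7.31 ± 0.406 RPKM in RV P7, against 13.8 ± 1.10 RPKM in RV P0 (log2 = -0.83 ± 0.10, adjusted p = 2.47e-06) and 7.15 ± 0.243 RPKM in LV P7, against 14.8 ± 0.445 RPKM in LV P0 (log2 = -0.96 ± 0.09, adjusted p = 5.73e-08). Rheb, the GTPase that turns on mTORC1, changed by -0.91 in RV and -0.85 in LV, and Mtor itself by -0.35 and -0.52. After scaling Rheb was still called lower (-0.58 in RV, -0.51 in LV), and Mtor was called in neither chamber (-0.06 and -0.20). The recycling factor Abce1 (-0.65 and -0.78) and the release factor Etf1 (-0.66 and -0.76) also fell. Of 15 genes that the integrated stress response is known to raise, 12 were tested, and 6 (50%) fell and none rose in each chamber, near the share of all tested entries called lower (46.1% in RV and 53% in LV). After scaling 5 fell in each chamber, where 20.6% of all entries fell in RV and 25.3% in LV. Those that fell included the amino acid and one-carbon enzymes Phgdh (-1.29 in RV, -2.08 in LV), Mthfd2 (-0.95 and -1.35), Shmt2 (-1.20 and -1.10) and Asns (-1.04 and -0.96). The regulators of that response, Atf4 (-0.30 and -0.15) and Ddit3 (-0.19 and -0.03), were not called.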

How the data were processed

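Total RNA of 17 libraries in 6 groups was read as strand-specific paired ends. The deposited values were RPKM, 1 for each RefSeq entry in each library. That unit stands in no header or label and was inferred from the numbers, whose low values were whole multiples of a step (100% within a tolerance of 0.02 for 19039 entries). Per the submitters' processing notes, alignment used STAR 2.4.0j and mm10. Not given in the sources used here are the counting tool, its annotation, its use of strand and its filters. Recovered library sizes were 27561845 to 41061058 reads. The tested members held 48 to 367425 reads in a library; errors are SDs and SEs over libraries.

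Of 20624 entries, 20379 were named from a RefSeq table of GRCm38.p6 and 76 from GENCODE M21, and 169 stayed unnamed. The 66 members had 89 entries, and 14 members had several. Coordinates are whole-gene GRCm38.p6 positions counted from 1. A linear model of the 6 group means over all 17 libraries was fitted to log2(RPKM + 1) with limma 3.58.1 (eBayes with trend) in R 4.3.3 for the 10668 entries that reached 1 RPKM in 2 or more libraries. Adjusted p-values are two-sided Benjamini-Hochberg values over those entries for 11 comparisons, and calls were made under 0.05. The step was tested on simulated data. Paralogue shares were tested by exact permutation. Tables used Python 3.11.15, numpy 2.4.6, pandas 2.3.3 and scipy 1.17.1, and figures matplotlib 3.10.9.

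The same-numbered RV and LV libraries of an age deviated together from their group means (r = 0.269 to 0.587 for 8 pairs, against -0.402 to 0.0939 for 16 pairs with other numbers). Deviations from a group mean cancel within the group, which lowers the r of the other pairs. With 2 RV P7 libraries the P7 values mirror each other (0.329 and -0.329 for LV replicate 1). The numbers were taken to pair the libraries within an age from this check alone, since no label states it. A shared heart and shared handling cannot be told apart. The alternatives were upper-quartile scaling, a pseudocount of 0.1, no filter, a filter of 1 RPKM in 9 libraries and the replicate block. Further ones were the sum of a gene's entries, leaving out each library, and, chosen after seeing the data, leaving out 7 libraries low in NM_008710. Between chambers, the replicate block joined the RV and LV libraries of the same age and number. Between ages it was the number alone, shared over ages, and no check here pairs libraries of different ages. Genes were named by rule: the 12 largest called changes of members at 5 RPKM or more between P7 and P0 in either chamber, the 4 largest elsewhere, and a set of core factors always. The remaining members were named to complete their role groups, and Mtor, Atf4 and Ddit3 after their values were seen. The members and lists were chosen with earlier results of these data known.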

Additional observations from a re-analysis of the deposited data

How the results depend on the processing

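Counts of called members were 46 for RV P7 against P0, 49 for LV P7 against P0, 23 for each of RV P3 against P0, LV P3 against P0 and LV P7 against P3, and 11 for RV P7 against P3. Upper-quartile scaling gave 22, 25, 16, 8, 7 and 4 in the same order. Without the 7 libraries low in NM_008710 they were 39, 30, 4, 1, 4 and 0. With no filter RV P7 against P3 gave 7. The replicate block gave 3 for RV against LV at P3 and moved no other count by over 1.5 times. Leaving out 1 library gave 30 to 47 for RV P7 against P0, 42 to 50 for LV P7 against P0, 17 to 27 for RV P3 against P0, 13 to 27 for LV P3 against P0, 12 to 25 for LV P7 against P3, 1 to 19 for RV P7 against P3, and 0 to 1 for RV against LV at P0 and at P3.
Upper-quartile scaling turned the direction of 20 single-member changes between P7 and P0. Of these, 8 were called with or without that scaling: in RV Eif3k (0.0081), and in LV Eef1akmt1 (0.0651), Eef2 (0.23, adjusted p = 0.0464), Eif1 (0.0785), Eif3h (0.0306), Eif3k (0.11), Eif4ebp2 (0.0206) and Eif4g2 (0.098); among the 8, Eef2 alone was called after scaling. The other 12 were called in neither fit: in RV Eef2 (0.18), Eif2ak3 (0.25), Eif2b2 (0.16), Eif2b3 (0.0336), Eif3f (0.0779), Eif4ebp2 (0.17) and Eif4g2 (0.21), and in LV Eif2b2 (0.16), Eif2d (0.0029), Eif3f (0.23), Eif3j1 (0.0815) and Eif3j2 (0.14). Other alternatives turned 13, all called in neither fit: the replicate block Eif2ak3 (0.0057) and Eif3j1 (-0.0499) in RV; leaving out the 7 libraries Eif2b3 in LV (-0.0286) and Eif4g2 in RV (0.0342); and leaving out 1 library turned Eif2b3 (-0.0057 to 0.0997 over the libraries left out) and Eif3j2 (-0.18 to 0.0506) in LV and Eif2ak3 (-0.17 to 0.16), Eif2b3 (-0.48 to 0.0186), Eif3j1 (-0.0272 to 0.0763) and Eif4g2 (-0.24 to 0.0342) in RV. Without 1 library the Eif1b share difference between RV P7 and P0 ran from -0.61 to 0.67 percentage points. Of the 2784 recomputed single-member results, 2586 kept direction and side of the threshold, 139 lost the call, 26 gained one and 33 turned. The causes were not tested. Entries near 0 of genes with several transcripts, among them Eif4a1 and Eif4g1, limit what could be measured.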
